A study of Mus musculus with 8 samples.

Results

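The genes described here are the 5 receptors for sphingosine 1-phosphate (S1pr1 to S1pr5), the kinases Sphk1 and Sphk2 that make this lipid, the lyase Sgpl1 that breaks it down and the transporter Spns2 that exports it. They were taken by name from the array annotation, with the probe set of highest mean over all arrays for each symbol. All 9 were measured, each by a single probe set with 1 symbol, among 22180 genes. The probe sets were chosen by their mean level over the same arrays, and the family came to notice through the high level of S1pr3 in Tln1 vehicle arrays, so the values of S1pr3 are given as a description with no test. The level of each gene is a log2 value, so a difference of 1 is a doubling.

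Total RNA of isolated kidney glomeruli was hybridised to Affymetrix arrays, 1 array per sample. The Tln1 VPA group (3 arrays) came from Tln1 Pod-rtTA TetO-Cre mice given doxycycline and then valproic acid, an inhibitor of histone deacetylases. The Tln1 vehicle group (3 arrays) came from mice of the same line given doxycycline and then vehicle. The control group (2 arrays) carries the genotype label control and also had doxycycline. All mice were 13 weeks old, doxycycline ran for 3 weeks from an age of 8 weeks, and vehicle or valproic acid followed for 2 weeks. The labels of the control mice name no vehicle, so genotype and vehicle cannot be told apart in comparisons with control. In such a line the Cre recombinase is driven in podocytes, the epithelial cells of the filtration barrier, and acts there on Tln1, which encodes the integrin-binding protein talin 1, while the isolate also holds endothelial, mesangial and tubule cells. The labels do not say that arrays of a group stand for separate animals, so p-values cover no more than the spread among these arrays, part of which may be technical.

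Sphingosine 1-phosphate is a lipid signal made inside cells by sphingosine kinases from sphingosine, a breakdown product of ceramide. It is carried out of endothelial cells by Spns2 and acts on G protein coupled receptors at the surface of nearby cells, while the lyase Sgpl1 degrades it irreversibly inside cells. S1pr1 couples to Gi and keeps the endothelial barrier tight, whereas S1pr2 and S1pr3 also couple to Gq and G12/13 proteins and are known for contraction of vascular smooth muscle. S1pr4 and S1pr5 are known mainly from lymphoid cells and, for S1pr5, natural killer cells and oligodendrocytes. Loss of SGPL1 in humans causes a nephrotic syndrome.

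Upstream sequence of 3 of the genes is shown because their values separate the arrays in different ways: S1pr3 and Sphk1 by group, and S1pr5 by array set. A window of 250 bases before a RefSeq start (GRCm38.p6) was found for 8 of the 9 genes, in 13 windows. The S1pr3 window lies at chr13:51408368-51408617 (plus strand), the S1pr5 window at chr9:21248444-21248693 (minus strand) and the Sphk1 window, 1 of 5 for that gene, at chr11:116531587-116531836 (plus strand). Each is written 5′ to 3′ in the direction of the gene, with capitals for a match on either strand to GGGCGG (the GC box) or TGANTCA (the AP-1 element).
S1pr3: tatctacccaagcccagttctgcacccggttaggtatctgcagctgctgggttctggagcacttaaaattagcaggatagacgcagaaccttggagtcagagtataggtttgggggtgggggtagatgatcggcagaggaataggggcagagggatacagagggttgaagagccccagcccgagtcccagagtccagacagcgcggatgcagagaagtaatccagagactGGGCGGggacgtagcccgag
Sphk1: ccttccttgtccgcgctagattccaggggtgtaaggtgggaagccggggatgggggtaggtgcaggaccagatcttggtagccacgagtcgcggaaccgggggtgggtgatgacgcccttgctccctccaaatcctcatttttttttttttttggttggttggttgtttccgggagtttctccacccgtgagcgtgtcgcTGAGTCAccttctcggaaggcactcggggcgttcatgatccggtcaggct
S1pr5: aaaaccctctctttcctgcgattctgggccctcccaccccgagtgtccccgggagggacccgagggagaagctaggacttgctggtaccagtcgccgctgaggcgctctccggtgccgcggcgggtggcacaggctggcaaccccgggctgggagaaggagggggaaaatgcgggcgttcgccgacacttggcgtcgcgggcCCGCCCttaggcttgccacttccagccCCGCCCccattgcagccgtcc
The S1pr3 window held a single GC box, 15 to 20 bases before the start, and the S1pr5 window held 2. GC boxes were found in 32.7% of all 32851 such windows and in 5 of the 13 windows of the family. The Sphk1 window held an AP-1 element 44 to 50 bases before its start, a motif found in 6.75% of all windows and in 2 of the 13, which are overlapping Sphk1 windows with the same match. The EGR motif GCGNGGGCG, present in 4.70% of all windows, was found in 0 of the 13. The windows of S1pr3, Sphk1 and S1pr5 were 56.4%, 57.6% and 69.2% G and C, beside a median of 52.4% over all windows. These are matches of letters only.

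The arrays fell into 2 sets by correlation over all genes, and the sets cross the groups. The first set holds 5 arrays (replicates 1 and 2 of Tln1 VPA and of Tln1 vehicle, and control 1) and the second holds 3 (replicate 3 of Tln1 VPA and of Tln1 vehicle, and control 2). Arrays of a set correlated at 0.990 to 0.995, and arrays of different sets at 0.966 to 0.979. The mean level of 9 measured podocyte markers, all above the median gene, was 8.46 to 9.02 in the second set and 7.24 to 7.89 in the first. That of 12 proximal tubule markers was 10.66 to 11.17 in the second set and 11.66 to 12.05 in the first. Tln1 itself was at 8.59 to 8.88 in Tln1 VPA, 8.60 to 8.95 in Tln1 vehicle and 8.64 to 8.97 in control arrays. Whether its probe set covers the deleted exons is not known here, so this level checks no label. Fewer cells of a type and less RNA per cell cannot be told apart in such bulk samples.

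S1pr3, a receptor of vascular smooth muscle, endothelium and mesangial cells, was higher in Tln1 vehicle arrays than in all others. It stood at 6.27, 6.11 and 5.85 in Tln1 VPA arrays, at 6.73, 6.65 and 6.76 in Tln1 vehicle arrays and at 6.05 and 5.91 in control arrays. All 3 Tln1 vehicle arrays lay above all 5 others, while Tln1 VPA and control arrays overlapped. The means were 6.08 ± 0.21 in Tln1 VPA (SD, n = 3), 6.71 ± 0.06 in Tln1 vehicle (n = 3) and 5.98 ± 0.10 in control (n = 2). The level was thus 0.73 higher in Tln1 vehicle than in control on the log2 scale (SE 0.15, 1.66-fold) and 0.64 lower in Tln1 VPA than in Tln1 vehicle (a log2 change of -0.64, SE 0.13). Tln1 VPA lay 0.10 above control (SE 0.15, interval -0.25 to 0.44), a difference whose sign depended on a single array (-0.0023 without Tln1 VPA replicate 1). The comparisons share arrays, so a high Tln1 vehicle level enters both of the larger ones.

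The values of S1pr3 within each array set are parts of the values that chose it and support nothing further. Tln1 vehicle over control gave a change of 0.64 for the first set and 0.85 for the second, and that of Tln1 VPA over Tln1 vehicle was -0.50 and -0.91. The Y-linked gene Eif2s3y was at 5.43, 6.51 and 2.69 in Tln1 VPA arrays, at 6.46, 7.71 and 2.91 in Tln1 vehicle arrays and at 3.80 and 2.83 in control arrays, so its group means had the same order as those of S1pr3 and its part in the level of S1pr3 was not tested. In the second set, where Eif2s3y lay between 2.69 and 2.91, S1pr3 was at 5.85 in Tln1 VPA, 6.76 in Tln1 vehicle and 5.91 in control. That set has a single array of each group, and these values are also among those that chose S1pr3. Over all genes, 0.582% had Tln1 vehicle arrays above all 5 others, 4.78% had Tln1 vehicle arrays above both control arrays and 1.57% had Tln1 VPA arrays below all Tln1 vehicle arrays. These shares stand beside S1pr3 as a background only, since its values chose it.

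Markers of cells known to carry S1pr3 were set beside it. The mean level of 11 measured mesangial and smooth muscle markers was 6.70 to 6.84 in Tln1 VPA, 6.82 to 7.17 in Tln1 vehicle and 6.48 to 6.75 in control arrays, with all 11 above the median gene. Of these, 9 were higher in Tln1 vehicle than in control and 10 were lower in Tln1 VPA than in Tln1 vehicle, with mean changes of 0.38 and -0.23, and 0 were called. Within the sets the mean change of Tln1 vehicle over control was 0.16 for the first and 0.70 for the second, and that of Tln1 VPA over Tln1 vehicle was -0.18 and -0.34. Of 12 endothelial markers, 9 were higher in Tln1 vehicle than in control and 12 were lower in Tln1 VPA than in Tln1 vehicle, again with 0 called. Their mean level was 8.22 to 8.46 in Tln1 VPA, 8.19 to 9.21 in Tln1 vehicle and 8.22 to 8.68 in control arrays. Their mean change of Tln1 vehicle over control was -0.28 for the first set, opposite in sign to S1pr3, and 1.00 for the second, while that of Tln1 VPA over Tln1 vehicle was -0.14 and -0.75. Over all genes, 55.6% were higher in Tln1 vehicle than in control and 51.3% were higher in Tln1 VPA than in Tln1 vehicle. Markers of other cells were lower in Tln1 VPA than in Tln1 vehicle as well, 11 of 12 for proximal tubule and 7 of 9 for podocytes. Those of macrophages and of lymphocytes were mostly higher there (11 of 12 and 9 of 11). The part of mesangial, smooth muscle and endothelial cells in the level of S1pr3 was not tested.

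**Figure D1:**
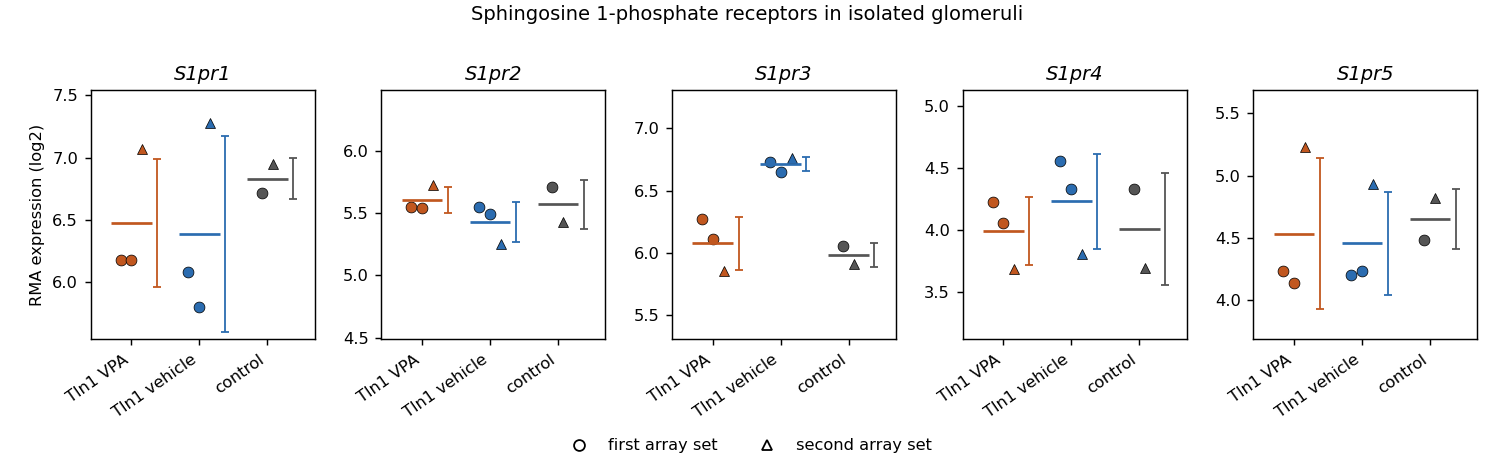
RMA expression (log2) of the 5 receptors in each array, by group, with circles for the first and triangles for the second array set, a line at the group mean and a bar of 1 SD; each panel spans the same number of log2 units. The 3 Tln1 vehicle arrays of S1pr3 sit between 6.65 and 6.76, above all others, whereas S1pr1 and S1pr5 are high and S1pr4 is low in the second set.

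S1pr1, the main receptor of endothelium and of lymphocyte egress, had the widest range over the 8 arrays of the 9 members (1.47). It stood at 6.18, 6.18 and 7.07 in Tln1 VPA arrays, at 6.08, 5.80 and 7.28 in Tln1 vehicle arrays and at 6.72 and 6.95 in control arrays. The highest array of each group was the one of the second set, and the groups overlapped in all 3 comparisons. The change of Tln1 vehicle over control was -0.44 (SE 0.45, interval -1.50 to 0.61), or -0.77 for the first set alone and 0.33 for the second. That of Tln1 VPA over Tln1 vehicle was 0.09 (SE 0.41, interval -0.85 to 1.03). Neither passed the test, and the sign within the sets differed in both. The size of Tln1 vehicle over control rested on single arrays, at -0.89 without Tln1 vehicle replicate 3, -0.29 without Tln1 vehicle replicate 1 and -0.15 without Tln1 vehicle replicate 2. It was -0.82 (SE 0.17, adjusted p = 0.414) with the replicate number as a block and -0.77 with array weights. With the array set as a block it was -0.30 (SE 0.23, limma adjusted p = 0.813). The replicate numbers do not pair control with Tln1 arrays.

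S1pr2, a receptor of vascular smooth muscle, was flat by comparison. It stood at 5.55, 5.54 and 5.72 in Tln1 VPA arrays, at 5.55, 5.49 and 5.25 in Tln1 vehicle arrays and at 5.71 and 5.43 in control arrays. The groups overlapped, and all 8 arrays lay within 0.47. Its change was 0.18 (SE 0.13, interval -0.14 to 0.49) for Tln1 VPA over Tln1 vehicle and -0.14 (SE 0.15, interval -0.49 to 0.21) for Tln1 vehicle over control. Tln1 vehicle over control gave -0.28 without control replicate 2 and -0.0010 without control replicate 1.

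S1pr4 and S1pr5, the receptors of lymphoid cells, had means below the median gene mean of 4.92. S1pr4 stood at 4.22, 4.06 and 3.69 in Tln1 VPA arrays, at 4.56, 4.33 and 3.81 in Tln1 vehicle arrays and at 4.33 and 3.69 in control arrays. S1pr5 stood at 4.23, 4.14 and 5.23 in Tln1 VPA arrays, at 4.20, 4.23 and 4.93 in Tln1 vehicle arrays and at 4.48 and 4.82 in control arrays. The groups overlapped for both receptors, and in each group the second-set array was the lowest for S1pr4 and the highest for S1pr5. Of the 11 measured lymphocyte and natural killer cell markers, 0 lay above the median gene, and their mean level was 3.32 to 3.38 in Tln1 VPA, 3.23 to 3.38 in Tln1 vehicle and 3.21 to 3.38 in control arrays. The changes for Tln1 VPA over Tln1 vehicle were -0.24 for S1pr4 (SE 0.26, interval -0.83 to 0.35) and 0.08 for S1pr5 (SE 0.33, interval -0.69 to 0.84). For Tln1 vehicle over control they were 0.22 (SE 0.29) and -0.20 (SE 0.37). That of S1pr5 ran from -0.44 without Tln1 vehicle replicate 3 to -0.025 without control replicate 2. S1pr4 was lower in Tln1 VPA than in Tln1 vehicle in all 3 pairs of arrays with the same number. So was S1pr3, while S1pr2, Sphk1 and Spns2 were higher in all 3, S1pr2 by 5.550 against 5.547 in pair 1. The labels state no pairing and the share of all genes was not counted, so these directions are no result about the members. The fit with the replicate number as a block gave the same change for S1pr4, with an SE of 0.13 (limma adjusted p = 1.00).

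Sphk1, the inducible sphingosine kinase of the cytoplasm, was the other member whose arrays separated by group. It stood at 4.49, 4.43 and 4.59 in Tln1 VPA arrays, at 4.16, 4.04 and 4.35 in Tln1 vehicle arrays and at 4.43 and 4.28 in control arrays. Every Tln1 VPA array lay above every Tln1 vehicle array, as for 1.98% of all genes, while control arrays overlapped both. The means were 4.50 ± 0.08 in Tln1 VPA (SD, n = 3), 4.18 ± 0.16 in Tln1 vehicle (n = 3) and 4.35 ± 0.11 in control (n = 2). The change of Tln1 VPA over Tln1 vehicle was 0.32 (SE 0.12, interval 0.04 to 0.60, 1.25-fold), or 0.36 for the first set alone and 0.24 for the second. It did not pass over all genes (limma adjusted p = 1.00, unadjusted p = 0.0312). The mean of Sphk1 lay below the median gene mean. Of 12 macrophage and myeloid markers, 6 lay above the median gene and 11 were higher in Tln1 VPA than in Tln1 vehicle, beside 51.3% of all genes. Their mean level was 4.56 to 5.35 in Tln1 VPA, 4.41 to 4.86 in Tln1 vehicle and 4.59 to 4.63 in control arrays. Lymphocyte and natural killer cell markers were mostly higher in that comparison too (9 of 11). The part of these cells in the level of Sphk1 was not tested.

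Sphk2, the kinase found in the nucleus and at mitochondria, did not separate the groups. It stood at 6.97, 7.29 and 6.78 in Tln1 VPA arrays, at 7.07, 7.12 and 7.07 in Tln1 vehicle arrays and at 7.14 and 6.86 in control arrays. The Tln1 vehicle arrays lay close together, inside the range of the Tln1 VPA arrays. Its change was -0.07 (SE 0.15, interval -0.43 to 0.29) for Tln1 VPA over Tln1 vehicle and 0.09 (SE 0.17, interval -0.32 to 0.49) for Tln1 vehicle over control.

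Sgpl1, the lyase, followed the array sets. It stood at 8.47, 8.28 and 8.04 in Tln1 VPA arrays, at 8.52, 8.42 and 7.98 in Tln1 vehicle arrays and at 8.46 and 7.90 in control arrays. The second-set array was the lowest of each group, and the groups overlapped. The change was -0.04 (SE 0.21, interval -0.54 to 0.45) for Tln1 VPA over Tln1 vehicle and 0.13 (SE 0.24, interval -0.42 to 0.68) for Tln1 vehicle over control.

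Spns2, the exporter, had groups that overlapped as well. It stood at 9.37, 9.21 and 9.11 in Tln1 VPA arrays, at 9.30, 8.97 and 8.89 in Tln1 vehicle arrays and at 9.39 and 8.85 in control arrays. The change was 0.18 (SE 0.18, interval -0.24 to 0.60) for Tln1 VPA over Tln1 vehicle and -0.07 (SE 0.20, interval -0.54 to 0.40) for Tln1 vehicle over control. The 2 control arrays were the highest and the lowest of all 8. In all 3 same-numbered pairs Spns2 was higher in Tln1 VPA than in Tln1 vehicle, but the labels state no pairing and the share of all genes was not counted. The block on the replicate number gave an SE of 0.11 for its change (limma adjusted p = 1.00).

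**Figure D2:**
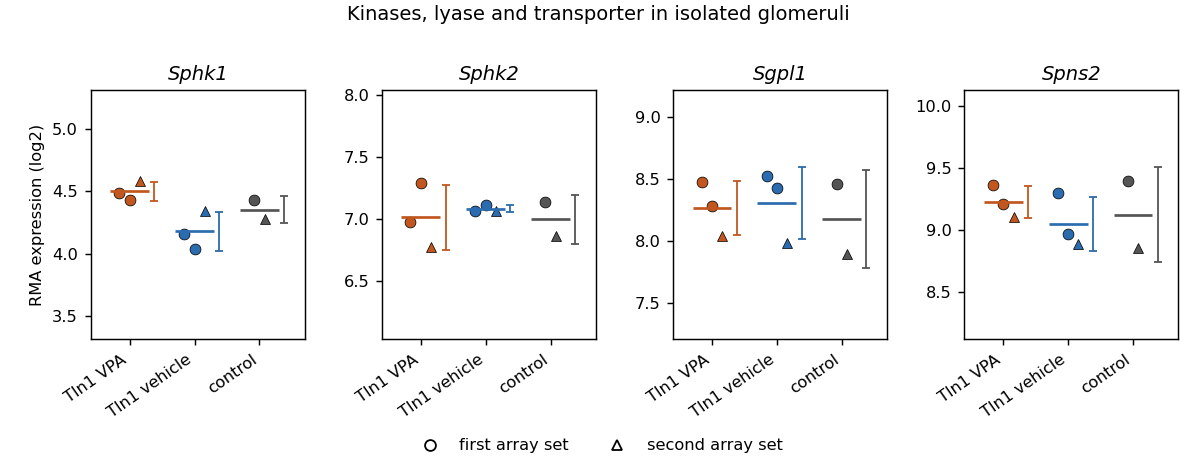
RMA expression (log2) of the kinases Sphk1 and Sphk2, the lyase Sgpl1 and the transporter Spns2 in each array, by group, drawn as for the receptors. Sphk1 lies at 4.43 to 4.59 in Tln1 VPA and at 4.04 to 4.35 in Tln1 vehicle arrays, and Sgpl1 is lowest in the second set of every group.

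Of the 8 members tested, 0 were called by limma at an adjusted p below 0.05 in any of the 3 comparisons, and the smallest adjusted p was 1.00 in each. Of all 22180 genes, 0% were called in each comparison. At an unadjusted p below 0.05 there was 1 member, Sphk1, for Tln1 VPA over Tln1 vehicle, where 1.26% of all genes had such a p. For Tln1 VPA over control and Tln1 vehicle over control there were 0 members, and 1.87% and 1.45% of all genes. The count for Tln1 VPA over Tln1 vehicle fell to 0 with quantile normalisation and with centring each array on its median. It was also 0 without Tln1 vehicle replicate 1 or 2 and without Tln1 VPA replicate 1 or 3. It stayed at 1 without Tln1 vehicle replicate 3 or Tln1 VPA replicate 2. With the replicate number as a block there were 2 members (S1pr1 and S1pr5, both lower) for Tln1 VPA over control among 2177 genes, and 3 (S1pr1 and S1pr5 lower, S1pr4 higher) for Tln1 vehicle over control among 1829 genes. In the first array set alone there were 2 (S1pr1 and S1pr5, lower) among 2820 genes and 3 (S1pr1, S1pr5 and Sphk1, lower) among 2672 genes. With the array set as a block there were 0 members for Tln1 VPA over control and 0 for Tln1 vehicle over control, among 1800 and 1620 genes. For Tln1 VPA over Tln1 vehicle the set block gave 2 (Sphk1 higher, S1pr4 lower) among 1205 genes. The replicate block gave 1 (Sphk1, higher) among 679 genes, and array weights gave 2 (Sphk1 higher, S1pr4 lower) among 2383 genes. Control 2 is of the second set and replicate 2 of both Tln1 groups of the first. The replicate block therefore does not pair control with Tln1 arrays. No member passed the adjusted threshold in any of these fits. For Tln1 VPA over control the 8 members lay between -0.35 (S1pr1, SE 0.45, interval -1.41 to 0.70) and 0.15 (Sphk1, SE 0.14, interval -0.17 to 0.46). The interval of S1pr1 held changes larger than 1 log2 unit in 1 direction in all 3 comparisons. A change of that size in that direction was thus not excluded by these arrays. The same held for S1pr5 in Tln1 vehicle over control (interval -1.05 to 0.66). Of the 8 members tested, Sphk1 alone had the 2 groups' arrays fully apart in Tln1 VPA over Tln1 vehicle, beside 3.55% of all genes. None did in Tln1 VPA over control or Tln1 vehicle over control, beside 9.55% and 8.37% of all genes. S1pr3 was apart in Tln1 VPA over Tln1 vehicle and in Tln1 vehicle over control, but is not counted, since its values chose it. The median change of all 9 members, S1pr3 included, was 0.08 for Tln1 VPA over Tln1 vehicle, 0.04 for Tln1 VPA over control and -0.07 for Tln1 vehicle over control. Over all genes it was 0.0032, 0.024 and 0.019.

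**Figure D3:**
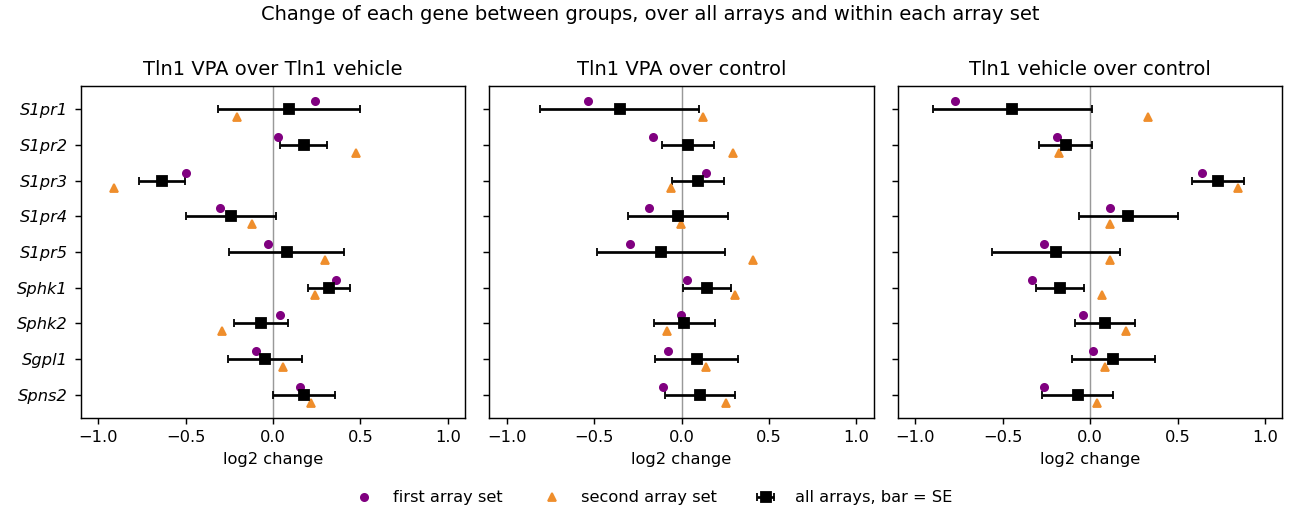
Log2 change of each gene in the 3 comparisons, with squares and SE bars for the fit over all arrays, circles for the first and triangles for the second array set. S1pr3 lies to the left for Tln1 VPA over Tln1 vehicle (-0.64) and to the right for Tln1 vehicle over control (0.73) in both sets, and Sphk1 lies to the right for Tln1 VPA over Tln1 vehicle (0.32).

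The values of 4 members followed the array sets. Second-set arrays averaged 0.91 more than first-set arrays for S1pr1 and 0.74 more for S1pr5, and the same difference was -0.57 for S1pr4 and -0.46 for Sgpl1. For these 4 genes the sets did not overlap, as for 13.2% of all genes with the second set higher and 36.6% with it lower. The residual SD with the set as an added term was 0.31, 0.19, 0.12 and 0.10 for S1pr1, S1pr5, S1pr4 and Sgpl1, against 0.60, 0.48, 0.36 and 0.29 without it. For S1pr3 it was 0.13, against 0.15. Separation by set was common over all genes and is not particular to these 4. The sets were found from all genes, and the 4 were named because the sets separate them. Their smaller residual SD follows from that choice, and the differences between the sets are a description. They run with the podocyte markers, of which 9 of 9 were higher in the second set by a mean of 1.19, and with the proximal tubule markers, of which 12 of 12 were lower there (mean difference -0.99). The Y-linked gene Eif2s3y was apart between the sets as well, at 3.80 to 7.71 in the first and 2.69 to 2.91 in the second. So were Uty and Kdm5d, which are also Y-linked. The part of the cell mix or of Y-linked expression in S1pr1, S1pr5, S1pr4 and Sgpl1 was not tested.

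The genes with the pattern nearest to S1pr3 were Gata5, a GATA transcription factor, Ptn, the secreted growth factor pleiotrophin, and Hes1, a transcriptional repressor and target of Notch. Their root mean square differences from S1pr3 over 8 arrays, each gene centred on its own mean, were 0.150, 0.178 and 0.182 among 11090 genes above the median mean. Gata5 averaged 6.39 in Tln1 VPA, 7.00 in Tln1 vehicle and 6.20 in control arrays. Ptn averaged 5.34 in Tln1 VPA, 5.91 in Tln1 vehicle and 5.26 in control arrays. Hes1 averaged 7.35 in Tln1 VPA, 7.63 in Tln1 vehicle and 7.19 in control arrays. For S1pr1 the nearest genes were Erbb4, a neuregulin receptor, at 0.105, Cwh43 at 0.124 and Stk39, a kinase that controls salt cotransporters, at 0.124. Erbb4 averaged 6.36 in Tln1 VPA, 6.27 in Tln1 vehicle and 6.85 in control arrays. The 8 arrays of each such likeness share the 2 sets. These genes were searched for by their likeness, so their group means follow from the choice and are a description.

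**Figure D4:**
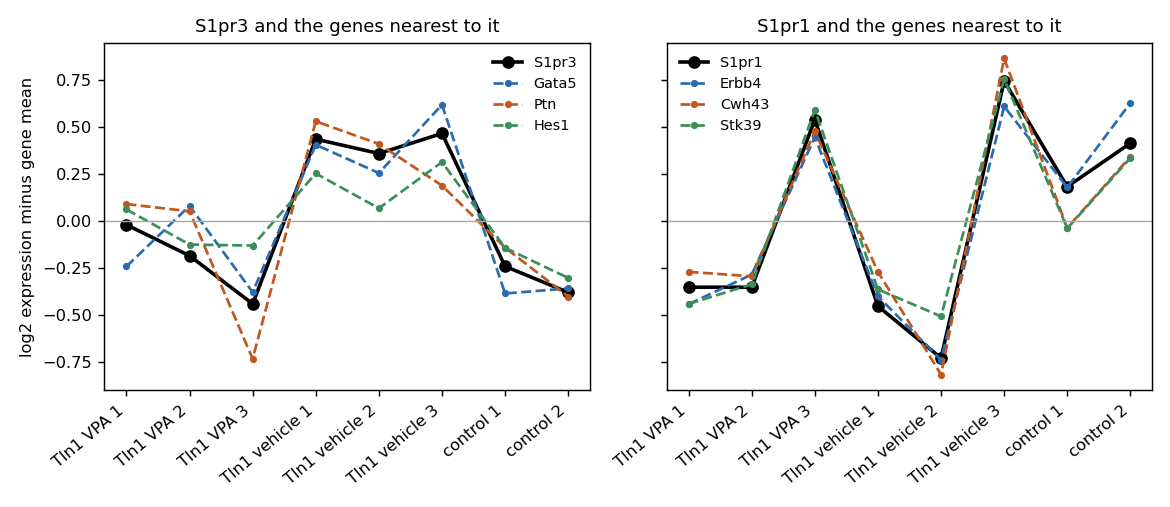
Log2 expression minus the mean of each gene over the 8 arrays, for S1pr3 (left) and S1pr1 (right) in black and their 3 nearest genes in colour. The genes nearest to S1pr3 are high in the Tln1 vehicle arrays, and those nearest to S1pr1 are high in replicate 3 of both Tln1 groups and in control 2.

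Other genes of the pathway were not called in any comparison. Sphingolipid metabolism had 38 of 41 listed genes measured, the other lysophospholipid receptors 7 of 10 and the G proteins, exchange factors and regulators downstream of the receptors 31 of 33. Limma called 0 of each list higher and 0 lower in each comparison. The median changes for Tln1 VPA over Tln1 vehicle were -0.04, -0.03 and 0.03, and those for Tln1 vehicle over control 0.07, -0.0013 and -0.01. Degs2, a dihydroceramide desaturase, had the smallest p of the 3 lists for Tln1 vehicle over control. It averaged 7.09 in Tln1 vehicle and 5.93 in control arrays (1.16, SE 0.47, adjusted p = 1.00), with changes of 1.54 for the first set and 0.33 for the second. Plpp1, a phosphatase of lipid phosphates at the cell surface, averaged 8.72 in Tln1 VPA and 9.23 in Tln1 vehicle arrays (-0.51, SE 0.24, adjusted p = 1.00). For Tln1 VPA over control, Sptlc2, a subunit of the first enzyme of sphingolipid synthesis, averaged 10.34 in Tln1 VPA and 9.99 in control arrays (0.35, SE 0.13, adjusted p = 1.00). Among the receptors for the related lipid lysophosphatidic acid, Lpar3 averaged 7.40 in Tln1 vehicle and 7.84 in control arrays (-0.44, SE 0.68, adjusted p = 1.00). Gpr174, a receptor for lysophosphatidylserine, averaged 2.74 in Tln1 VPA and 2.83 in Tln1 vehicle arrays (-0.09, SE 0.11, adjusted p = 1.00). Downstream of the receptors, Gnai2, an inhibitory G protein subunit, averaged 9.54 in Tln1 VPA and 9.31 in control arrays (0.23, SE 0.14, adjusted p = 1.00). Rgs16, which speeds the turn-off of G proteins, averaged 3.92 in Tln1 VPA and 3.74 in Tln1 vehicle arrays (0.18, SE 0.12), and its relative Rgs1 averaged 2.93 in Tln1 vehicle and 3.17 in control arrays (-0.25, SE 0.16).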

How the data were processed

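The authors deposited log2 values per probe set. The submitters' processing notes name RMA and limma, without versions. The sources used here do not state the genome build, the annotation or which arrays were normalised together. Values ran from 1.49 to 13.9 over 41345 probe sets, of which 23521 had 1 gene symbol, 1814 several and 16010 none in the platform annotation. Of probe sets with 1 symbol, that with the highest mean over the 8 arrays was kept per gene (22180 genes).

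All comparisons came from 1 fit of lmFit and eBayes (limma 3.58.1, R 4.3.3) with group as the only term, two-sided, with Benjamini-Hochberg adjustment over all genes, a call at an adjusted p below 0.05 and 95% intervals that are not adjusted. The fit was tested on simulated data. Motifs were searched in RefSeq promoter windows (GRCm38.p6). Figures used matplotlib 3.10.9. The members, gene lists and tests were chosen with earlier results of these data known, and the named genes are the members, the 3 nearest genes to S1pr3 and S1pr1 and the gene of smallest p in each pathway list and comparison. Array sets came from average-linkage clustering of correlations.

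Deviations from the group mean correlated across genes between Tln1 VPA and Tln1 vehicle arrays of the same number (r = 0.570, 0.609 and 0.787). The labels state no pairing. Same-numbered arrays of these 2 groups also lie in the same array set, so the correlations do not tell pairing from set. The reported fit has no block, and the fit with the replicate number as a block is an alternative. Between Tln1 vehicle and control the values were 0.609 and -0.591, so those numbers do not pair the arrays. The number of arrays limits the precision.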

Additional observations from a re-analysis of the deposited data

How the results depend on the processing

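With single arrays left out, S1pr3 ran from -0.73 to -0.52 for Tln1 VPA over Tln1 vehicle, from 0.66 to 0.80 for Tln1 vehicle over control and from -0.0023 to 0.21 for Tln1 VPA over control. The direction of the first 2 is fixed by the choice of the gene and is no sign of stability. Calls among the 8 members tested stayed at 0 in all alternatives, as did those of pathway genes. With the replicate number as a block (replicate block), 4 genes were called for Tln1 vehicle over control and 1 for Tln1 VPA over control, against 0 without the block. None was among the 8 members tested, and the block changed no other call. Signs of small changes turned as follows, and the cause was not tested. For Tln1 VPA over control, quantile normalisation gave -0.025 (S1pr2) and -0.020 (Sphk2), centring -0.0093 and -0.029, the replicate block 0.16 (S1pr4), array weights -0.011 (S1pr2) and 0.080 (S1pr4), and the array set as a block 0.0035 (S1pr5) and -0.019 (Sphk2). Array weights gave 0.098 for Spns2 in Tln1 vehicle over control and 0.062 for Sphk2 in Tln1 VPA over Tln1 vehicle. The first array set alone, added after seeing the data, gave -0.16 (S1pr2), -0.0010 (Sphk2), -0.079 (Sgpl1) and -0.10 (Spns2) for Tln1 VPA over control, -0.031 (S1pr5) and 0.042 (Sphk2) for Tln1 VPA over Tln1 vehicle and -0.043 (Sphk2) for Tln1 vehicle over control. With single arrays left out, signs turned for Tln1 VPA over Tln1 vehicle in S1pr1 (-0.21 to 0.54), S1pr5 (-0.27 to 0.32), Sphk2 (-0.21 to 0.050) and Sgpl1 (-0.21 to 0.069). For Tln1 VPA over control they turned in S1pr2 (-0.10 to 0.17), S1pr4 (-0.34 to 0.30), S1pr5 (-0.47 to 0.078), Sphk2 (-0.12 to 0.15), Sgpl1 (-0.19 to 0.37) and Spns2 (-0.16 to 0.38). For Tln1 vehicle over control they turned in S1pr4 (-0.099 to 0.54), Sphk2 (-0.051 to 0.22), Sgpl1 (-0.15 to 0.41) and Spns2 (-0.34 to 0.20). Genes below the median mean, S1pr4, S1pr5 and Sphk1 among them, gave no value under the filter on low values. Sphk1 for Tln1 VPA over Tln1 vehicle ran from 0.25 to 0.40 without single arrays, with adjusted p between 0.275 and 1.00 over the alternatives.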
